A study of Mus musculus with 2 samples.

Results

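The 9 genes of the estrogen receptor coregulator group and of the Cited family were followed on the arrays of sorted luminal mammary epithelial cells. They are the transactivator genes Cited1, Cited2 and Cited4, the p160 coactivator genes Ncoa1, Ncoa2 and Ncoa3, the corepressor genes Nrip1 and Ncor1, and Greb1. Every probe set that the platform annotation pairs with one of these symbols alone was a member, which gave 14 probe sets of 5 genes, among 22223 probe sets of 13869 genes in the whole table. Cited2, Ncoa1, Ncoa3 and Ncor1 had no such probe set in the table used here and are not analysed here. The cells came from mammary glands of 3 adult virgin female mice, 5 months old and on the FVB background, whose epithelial cells were pooled before sorting. All carried 1 Tbx3 knock-in allele, in which Venus fluorescent protein is made from the Tbx3 promoter, so both populations are heterozygous for Tbx3. After dead, CD45+ and stromal cells had been removed, 200000 luminal cells with high Venus signal (VenusHigh) and 200000 with low or no Venus signal (VenusLow) were collected by their CD24 and CD49f levels. Each population was measured on 1 Affymetrix array.

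The estrogen receptor acts on its target genes through proteins that it recruits and that do not bind DNA themselves. Coactivators such as the p160 family bring in histone acetyltransferases, among them p300 and CBP. Corepressors such as NCOR1 and NRIP1 bring in histone deacetylases or compete for the same receptor surface. The CITED proteins bind p300 and CBP through an acidic carboxy-terminal domain, and CITED1 assists the estrogen receptor in this way. In the adult mammary gland the receptor is made by a subset of luminal cells, the hormone-sensing cells, whose neighbours respond to the signals these cells release.

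With 1 array per population there was no replicate check, no error of a difference and no test, and the number of arrays limits the precision. Values are log2 array signals, and a difference is VenusHigh minus VenusLow. The lowest value in the table, 3.32, is the log2 of a signal of 10 and was taken as a floor. Of 29338 probe sets, 12968 were higher in VenusHigh cells, 16370 lay at the floor in both populations and 0 were lower in VenusHigh cells. Such a one-sided table cannot show a gene that is lower in VenusHigh cells, and every median difference lies at or above 0 by construction. Centring both arrays on the median of the probe sets that passed a signal of 100 takes 0.66 off each difference. Any difference under 0.66 thus turns negative after it, for members and other genes alike. The differences of several probe sets for 1 gene scattered with a pooled SD of 0.31 (1062 genes), which covers these 2 arrays and not animals. The sort marker Tbx3 differed by 5.10 and 4.11 on the 2 of its 5 probe sets that passed a signal of 100, and Esr1, the gene of estrogen receptor alpha, by 2.98 and 3.42. Of the luminal marker genes in the table, the keratin gene Krt8 had 13.22 in VenusHigh and 13.13 in VenusLow cells, the smallest difference. Krt19 differed by 0.98, Cd24a by 0.78 on its brightest probe set and Cdh1 by 0.19. After this centring Krt8 (-0.57) and Cdh1 (-0.47) were negative, and Krt19 (0.32) and Cd24a (0.12) were positive. All 6 basal and all 5 immune marker genes in the table were at the floor on both arrays, 0 of 6 stromal markers passed a signal of 100, and the endothelial marker Vwf had 7.26 in VenusHigh and 4.31 in VenusLow cells. The endothelial markers Cdh5 and Tek lay at the floor on both arrays, and Kdr had 3.78 in VenusHigh and 3.32 in VenusLow cells. Summed over the 4 endothelial markers in the table, the linear signal was 187 in VenusHigh and 49.8 in VenusLow cells. Vwf alone made up most of that VenusHigh sum. Over the 6 stromal markers the sum was 120.0 in VenusHigh and 82.5 in VenusLow cells. Its largest part was Dcn, with log2 signals of 6.01 in VenusHigh and 4.89 in VenusLow cells. The part of such cells in the results below was not tested. None of 8 alveolar progenitor markers had a probe set here, so the VenusLow population was not checked against its own markers.

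Cited1 stood apart from the other members, and Greb1 was the only other one past 4-fold. A probe set was counted when its log2 difference was at least 2 (4-fold) or at least 1 (2-fold) and its higher signal at least 100. Of the 14 member probe sets, 3 lay at the floor in both populations, 4 lay above the floor in VenusHigh cells but under a signal of 100, and 7, of 4 genes, reached it. Of these 7, 2 were higher by 4-fold or more in VenusHigh cells, against 8.62% of the 5370 probe sets with 1 gene symbol that reached that signal. The same 2 were all that were higher by 2-fold or more, where the share over all probe sets was 22.6%. A probe set reached the minimum through its VenusHigh value in this table, which was never the lower of the pair, so these shares describe the table and not the luminal cells at large. The median difference of the 7 was 0.33, against 0.49 over all 5370. In bulk RNA a higher signal from more cells of a type and from more RNA per cell cannot be told apart, here and in all that follows.

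**Figure D1:**
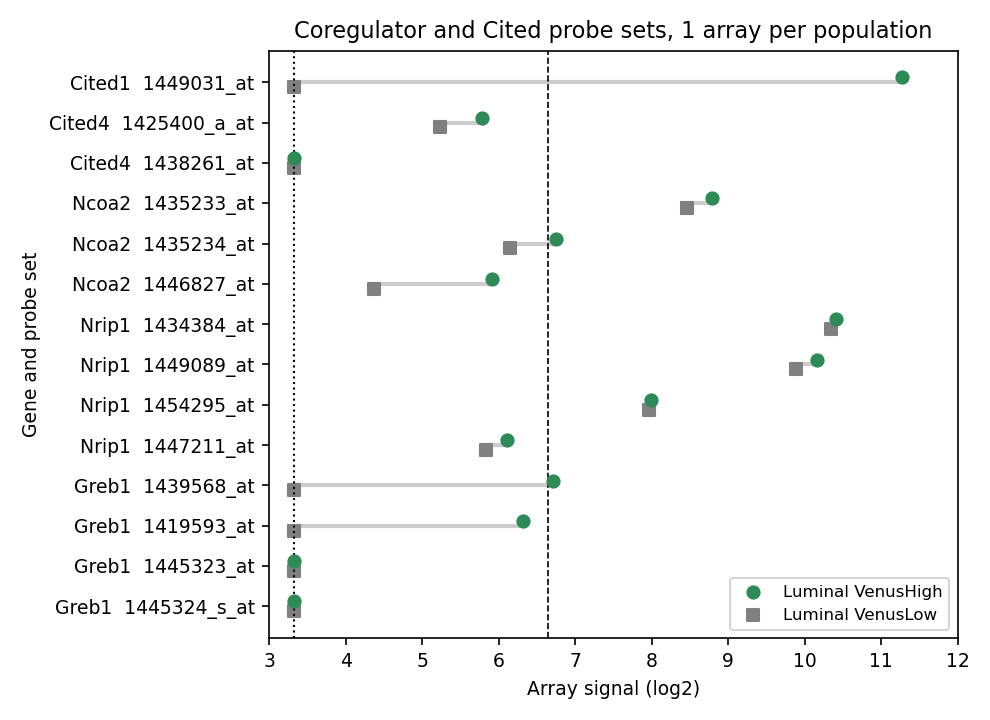
Array signal (log2, horizontal axis) of the 14 member probe sets (vertical axis) with VenusHigh as green circles and VenusLow as grey squares, 1 array each, with the floor as a dotted line and a signal of 100 as a dashed line. Cited1 lies at 11.28 in VenusHigh and 3.32 in VenusLow cells and a pair of Greb1 probe sets leave the floor only in VenusHigh cells, while the Nrip1 markers lie close together.

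Cited1, which encodes a coactivator of the estrogen receptor without a DNA-binding domain of its own, was represented by 1 probe set, 1449031_at. Its log2 signal was 11.28 in VenusHigh cells and at the floor of 3.32 in VenusLow cells. On a linear scale this was a signal of 2481 in VenusHigh and 10 in VenusLow cells, a ratio of at least 248-fold as deposited. This bound depends on the scaling of the arrays and on the floor of 10, so it does not bound the true ratio. The difference of at least 7.95 was 7.30 after median centring and 7.57 after quantile normalization, and 4.63 when signals under 100 were set to 100, so the 4-fold call did not depend on these choices. No second probe set was available to set beside it. The mouse Cited1 gene lies on the X chromosome, and RefSeq gives 3 start sites for it. The window of the outermost one, 250 bases before the start and 50 after it, is shown because the 4-fold call of this gene held at every floor tried. It lies at chrX:102252132-102252431 on the minus strand of GRCm38.p6, and capitals mark the half-site of the estrogen response element, GGTCA, which reads TGACC where it lies on the opposite strand.
Cited1: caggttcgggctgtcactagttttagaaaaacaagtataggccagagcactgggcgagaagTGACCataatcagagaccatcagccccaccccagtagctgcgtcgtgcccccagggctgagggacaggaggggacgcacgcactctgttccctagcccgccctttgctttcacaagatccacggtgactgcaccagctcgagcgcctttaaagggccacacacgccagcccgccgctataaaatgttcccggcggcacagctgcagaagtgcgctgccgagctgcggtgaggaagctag
The match begins at position -189 from the start. A half-site match was also found at -217 in the window of another Cited1 start, and none in that of the remaining one.

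Greb1, a gene that estrogen induces in breast cancer cells and whose product binds the estrogen receptor, gave a divided picture over its 4 probe sets. Probe set 1439568_at had a log2 signal of 6.71 in VenusHigh cells and lay at the floor in VenusLow cells, a difference of at least 3.38 or at least 10.4-fold. Probe set 1419593_at had 6.31 in VenusHigh cells and was likewise at the floor in VenusLow cells, at least 7.94-fold, but stayed under a signal of 100 and was not counted. The other 2, 1445323_at and 1445324_s_at, which share an accession in the platform annotation, lay at the floor in both populations. Both probe sets with a signal were thus above the floor in VenusHigh cells only. The linear signals were 104 and 79.4 in VenusHigh cells against 10 in VenusLow cells, so the size of the difference depends on the floor. With signals floored at 32 the differences were 1.71 and 1.31, and with a floor at 100 the first was 0.06 and the other lay at that floor in both populations, so the 4-fold call on 1439568_at was lost under both. After median centring they were 2.72 and 2.33. RefSeq windows for 2 Greb1 starts were held in the table used here, and the outer one, chr12:16800837-16801136 on the minus strand of GRCm38.p6, is shown with the half-site in capitals for comparison with that of Cited1.
Greb1: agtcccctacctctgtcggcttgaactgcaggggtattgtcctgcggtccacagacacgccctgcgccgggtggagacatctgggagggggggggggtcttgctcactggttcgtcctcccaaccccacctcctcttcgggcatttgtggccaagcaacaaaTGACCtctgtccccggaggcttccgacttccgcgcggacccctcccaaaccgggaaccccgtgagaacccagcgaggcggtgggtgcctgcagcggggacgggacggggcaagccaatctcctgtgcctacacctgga
Its match begins at position -88 and lies on the opposite strand, as in Cited1. The window of the other Greb1 start has matches at -194 and -85, both on the strand of the gene.

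**Figure D2:**
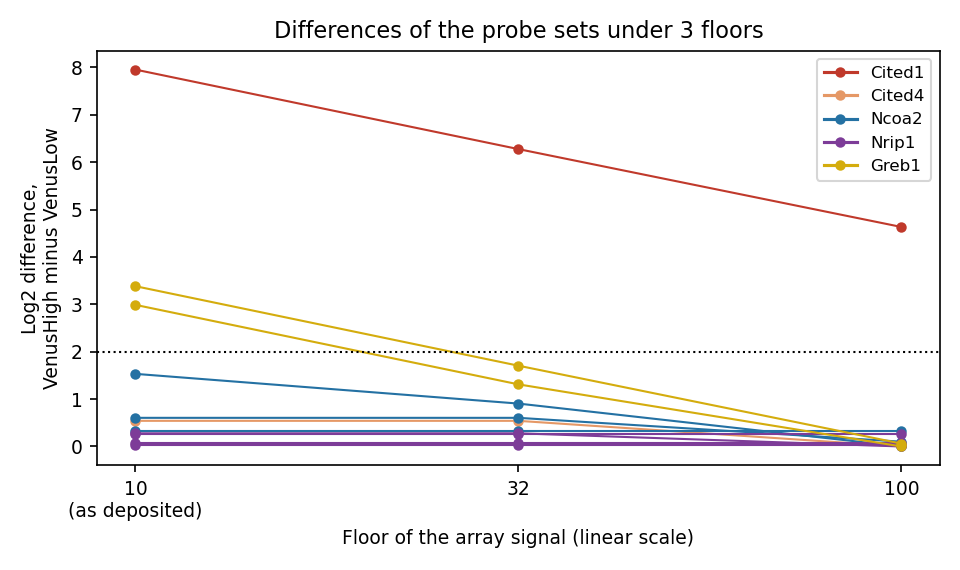
Log2 difference, VenusHigh minus VenusLow (vertical axis), of the 11 member probe sets above the floor in VenusHigh cells, with signals floored at 10 as deposited, at 32 and at 100 (horizontal axis, linear signal), and with the 4-fold line dotted. Cited1 stays above the line at 4.63 or more, while the upper Greb1 line drops to 1.71 and then 0.06.

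Nrip1, which encodes the ligand-dependent corepressor RIP140 and is itself an estrogen-responsive gene in other systems, differed between the populations by less than 0.31 on each of its 4 probe sets. Its log2 signals were 10.41 in VenusHigh and 10.35 in VenusLow cells on 1434384_at, 10.16 in VenusHigh and 9.89 in VenusLow cells on 1449089_at, and 7.98 in VenusHigh and 7.96 in VenusLow cells on 1454295_at. The remaining probe set, 1447211_at, had 6.11 in VenusHigh and 5.83 in VenusLow cells and did not pass a signal of 100. The differences of the 3 that reached it were 0.06, 0.27 and 0.02, where the SD between probe sets of 1 gene was 0.31. Of all 5370 probe sets, only 6.98%, 29.1% and 2.42% had a smaller difference than these. Median centring made them -0.60, -0.39 and -0.64 and quantile normalization -0.64, -0.44 and -0.63. Median centring turns any difference under 0.66 negative, so this sign follows the setting and Nrip1 has no settled direction here. A Nrip1 probe set that is lower in VenusHigh cells would be missing here. Its outer RefSeq window, chr16:76373778-76374077 on the minus strand of GRCm38.p6, is shown as that of a member whose differences were under the SD between probe sets.
Nrip1: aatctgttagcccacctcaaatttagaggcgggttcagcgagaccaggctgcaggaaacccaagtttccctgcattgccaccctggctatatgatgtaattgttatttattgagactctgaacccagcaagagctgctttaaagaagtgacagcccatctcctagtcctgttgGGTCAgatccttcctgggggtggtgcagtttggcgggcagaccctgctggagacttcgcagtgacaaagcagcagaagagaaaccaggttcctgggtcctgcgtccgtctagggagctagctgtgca
It also holds the half-site, at position -77 on the strand of the gene, and the window of the other Nrip1 start has 0. Over all members, RefSeq windows were found for 7 of the 9 genes, 12 windows in all, and 6 of the 12, from 4 genes, held a half-site on either strand, where 40.5% of 32851 windows of the same length did. The palindromic element (GGTCA and TGACC, 3 bases apart) was in 0 of the 12 and in 0.07% of all windows, the forkhead motif TGTTTAC in 0 and 3.65%, and the T-box motif AGGTGTGA in 0 and 1.28%, each searched on both strands. The half-site is contained in the palindromic element. These matches describe letters in a window and not binding.

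Ncoa2, the gene of the p160 coactivator also called SRC-2, GRIP1 or TIF2, was less than 2-fold higher on both probe sets that passed a signal of 100. Its log2 signals were 8.79 in VenusHigh and 8.46 in VenusLow cells on 1435233_at, a difference of 0.33. On 1435234_at they were 6.75 in VenusHigh and 6.14 in VenusLow cells, a difference of 0.60, and only the VenusHigh value passed a signal of 100. The third probe set, 1446827_at, had 5.91 in VenusHigh and 4.37 in VenusLow cells, a difference of 1.53, but lay under a signal of 100 on both arrays and was not counted. The differences on the Ncoa2 probe sets thus spanned 0.33 to 1.53. The SD of 0.31 between probe sets was pooled over those that passed a signal of 100, so it does not cover 1446827_at. After median centring the Ncoa2 differences were -0.33, -0.05 and 0.87, so the probe sets of this gene did not share a direction under that setting.

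Cited4, which encodes another partner of p300 and CBP, lay under a signal of 100 on both arrays. Its log2 signals on 1425400_a_at were 5.78 in VenusHigh and 5.24 in VenusLow cells, and 1438261_at was at the floor on both. The difference of 0.54, or 1.46-fold, became -0.12 after median centring and -0.25 after quantile normalization. Median centring turns any difference under 0.66 negative, so the sign follows the setting and Cited4 has no settled direction. Against the difference of at least 7.95 on the Cited1 probe set, the Cited4 probe set with a signal thus differed by less than 2-fold, and whether Cited2 separated the populations is not analysed here.

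**Figure D3:**
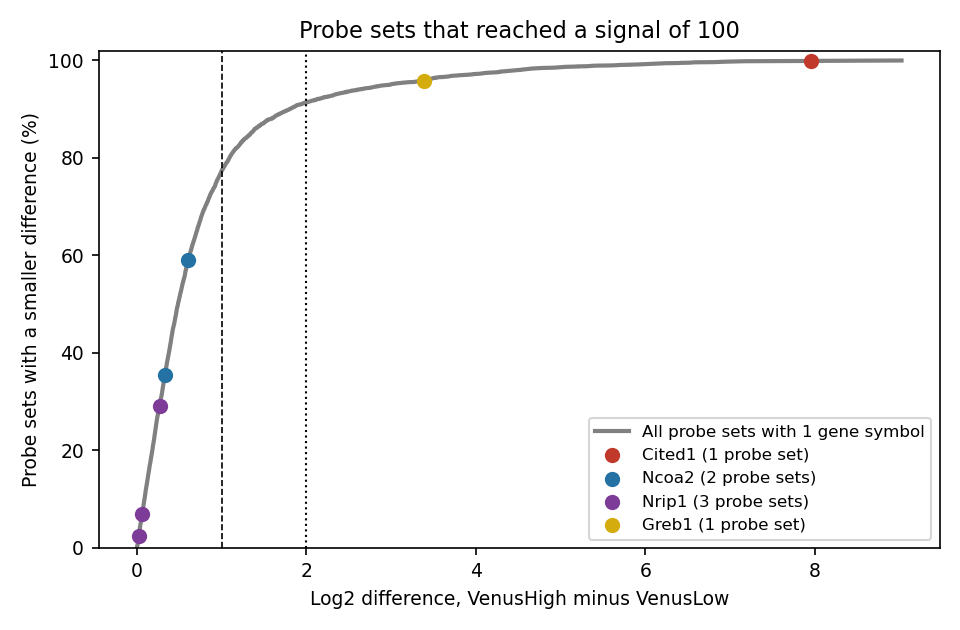
Share of the 5370 probe sets with a smaller difference (vertical axis, %) against the log2 difference, VenusHigh minus VenusLow (horizontal axis), for all probe sets with 1 gene symbol that passed a signal of 100 (grey line) and the 7 member probe sets (coloured points), with 2-fold dashed and 4-fold dotted. Cited1 and Greb1 lie to the right of the 4-fold line, and the Nrip1 and Ncoa2 points lie at 0.60 or less.

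The other coregulator genes that passed a signal of 100 all had smaller differences than Cited1. Each gene was here read from the probe set that had its highest mean log2 value, and of 3847 genes that passed a signal of 100, 8.58% were up by 4-fold or more and 21.6% by 2-fold or more in VenusHigh cells, with a median difference of 0.46. Of 68 other coactivator and corepressor genes on the lists, 44 were represented and 33 passed a signal of 100. Of these 33, 0 were 4-fold or more and 5 were 2-fold or more higher, which is 15.2%, and their median difference was 0.30. After median centring 2 of the 5, Trim24 and Hdac1, were still higher by 2-fold or more, and 25 of the 33 differences were negative. The median of 0.46 over the 3847 genes is also under the 0.66 that centring takes off, so most of those genes turn negative too. The 2-fold share over all genes was not counted after centring. Genes lower in VenusHigh cells are missing from these counts.

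Among the coactivator genes, Trim24, which encodes a bromodomain cofactor of nuclear receptors, had log2 signals of 8.52 in VenusHigh and 6.83 in VenusLow cells, a difference of 1.68. Its 2 other probe sets lay under a signal of 100 and differed by 0.27 and 0.36. Med24, a subunit of the Mediator complex that links receptors to RNA polymerase, had 8.37 in VenusHigh and 6.86 in VenusLow cells, a difference of 1.51, and its other probe set was at the floor on both. Smarca4, the ATPase of the SWI/SNF remodelling complex, differed by 1.20 (9.83 in VenusHigh and 8.63 in VenusLow cells) and by 0.84 on its second probe set. The remaining gene of the 5, Sra1, was chosen after its values were seen and differed by 1.02 (9.39 in VenusHigh and 8.37 in VenusLow cells). At the lower end Smarce1, another SWI/SNF subunit, differed by 0.01 and by 0.58 on another probe set, and Med1, the Mediator subunit that contacts nuclear receptors, by 0.04. The list of 38 coactivators, Cited1 included, had 26 genes in the table, of which 19 passed a signal of 100. Of the 19, 5 were higher by 2-fold or more and 14 were not, where 21.6% of the 3847 genes were. The list median was 0.47, against 0.46 over the 3847 genes. After median centring 2 of the 19, Cited1 and Trim24, were higher by 2-fold or more, and 13 differences were negative, as are those of most of the 3847 genes.

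Among the corepressor genes, Hdac1, which encodes a histone deacetylase of the SIN3 and NuRD complexes, was the 1 gene higher by 2-fold or more, with log2 signals of 9.83 in VenusHigh and 8.01 in VenusLow cells on its single probe set. The difference of 1.82 was 1.16 after median centring. Mta1, a NuRD subunit, differed by 0.86, Sin3a, the scaffold of the SIN3 complex, by 0.81, and Kdm1a, a histone demethylase, by 0.59 and 0.65 on its probe sets. Among the corepressor genes that passed a signal of 100, Safb and Tle1 had the smallest differences, 0.000468 and 0.06. Of 38 corepressor genes, Nrip1 included, 22 were represented and 17 passed a signal of 100. Of the 17, 16 were less than 2-fold higher, where 21.6% of the 3847 genes were higher by 2-fold or more. The list median was 0.29, against 0.46 over the 3847 genes.

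A further list held proteins that CITED factors bind, and Hif1a, whose product is a competitor. Ep300, which encodes p300, had log2 signals of 8.97 in VenusHigh and 8.50 in VenusLow cells on its single probe set. The difference of 0.47 was -0.19 after median centring. Esr1 had 10.62 in VenusHigh and 7.64 in VenusLow cells. Hif1a, the oxygen-regulated transcription factor that competes with CITED2 for p300, had 11.55 in VenusHigh and 9.85 in VenusLow cells, a difference of 1.69, with 1.47 on the other probe set that passed a signal of 100. Smad3 differed by 0.34, Ctnnb1 by 0.16 and Tfap2b, one of the AP-2 factors that CITED proteins assist, by 0.08 on one probe set and 0.85 on another. Of 18 genes on this list, 14 were represented and 8 passed a signal of 100. Of the 8, 2 were higher by 2-fold or more, where 21.6% of the 3847 genes were. These were Esr1 and the competitor Hif1a. The median of the 8 was 0.28, against 0.46 over the 3847 genes. Crebbp, Tfap2c and Smad4 are not analysed here.

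Both Greb1 and Nrip1 are also known as estrogen-responsive genes, and they lay on different sides of the 4-fold line in that list. Of 27 such genes, 18 were represented, 7 of them at the floor on both arrays, and 10 passed a signal of 100. Of the 10, 7 were higher by 4-fold or more in VenusHigh cells, where 8.58% of the 3847 genes were. The other 3 were less than 2-fold higher. Every gene counted as 4-fold lay under a signal of 100 in VenusLow cells, so each passed the minimum only through its VenusHigh value. The list was also chosen with earlier results of these data known, so the count describes the list and is not a test. Greb1 was among those higher by 4-fold, at a bound of at least 3.38, which has no order among the others. Slc7a2 (6.85), Stc2 (6.57), Wnt4 (5.69) and Pgr (6.88) lay above the floor in both populations on the probe set read. Their VenusLow values there, 4.19 for Wnt4 to 5.28 for Stc2, were under a signal of 100. Other probe sets of Slc7a2, Wnt4 and Pgr lay at the floor in VenusLow cells. Nrip1, at 0.06, had the smallest of the 10, next to Xbp1 at 0.33. The median of the 10 was at least 4.46, and with the floor at 100 it was 2.12 and 5 genes were still higher by 4-fold or more, without Greb1.

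**Figure D4:**
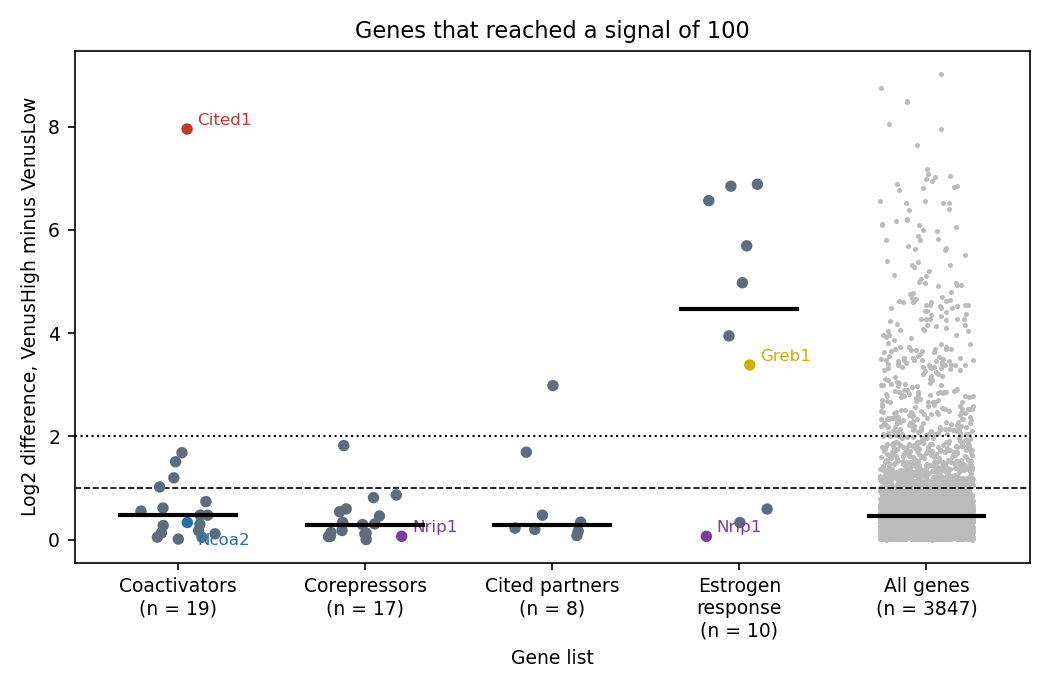
Log2 difference, VenusHigh minus VenusLow (vertical axis), of the genes of 4 lists that passed a signal of 100 and of all 3847 genes that did (horizontal axis), each point 1 gene, read from its brightest probe set, with list medians as bars and 2-fold and 4-fold as dashed and dotted lines. Cited1 lies above all other coactivators, and Greb1 and Nrip1 lie among the estrogen-responsive genes, Greb1 at its bound of 3.38 and Nrip1 at 0.06.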

How the data were processed

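Biotin-labelled cRNA was made from 250 ng of total RNA of each sorted population, with an RNA integrity number above 9.4 per the labels. The deposited values are log2 array signals, which the authors log2-transformed and then normalized and centred for each sample with BRB Array software. MAS5 is also named in the submitters' processing notes. The sources used here do not give the scaling target. The median over all probe sets was at the floor of 3.32 on both arrays, and over those that passed a signal of 100 it was 8.21 in VenusHigh and 7.55 in VenusLow cells.

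Gene symbols came from the platform annotation and were updated by gene identifier with RefSeq genes of GRCm38.p6. Of 29338 probe sets, 22223 had 1 symbol, 602 had several and 6513 are not listed there, and only the first kind was used. Promoter windows were RefSeq sequences of GRCm38.p6. The members and the gene lists were chosen with earlier results of these data known. The text names every member probe set and, from each list, up to 4 genes with the largest and 2 with the smallest differences, with other genes named where they fill a count. Lists covered coactivators, corepressors, CITED partners, estrogen response genes, estrogen receptor family and pathway factors, receptor chaperones and cell type markers.

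No test was made, since each population has 1 array. Alternatives were median centring, quantile normalization, floors at 32 and 100, signal minima of 50, 200 or none, leaving out _x_at, _s_at and _a_at probe sets, and 1 probe set per gene. Scripts ran under Python 3.11.15 (numpy 2.4.6, pandas 2.3.3, figures by matplotlib 3.10.9), and the counting was tested on simulated data.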

Additional observations from a re-analysis of the deposited data

How the results depend on the processing

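The count of member probe sets higher by 4-fold or more in VenusHigh cells, 2 as reported, was 1 with the floor at 32, 1 with the floor at 100 and 1 with a signal minimum of 200, where Cited1 was left, and 3 with a signal minimum of 50 or none, which admits 1419593_at of Greb1. The count higher by 2-fold or more, also 2, was 1 with the floor at 100 and 1 with a signal minimum of 200, and 4 with a signal minimum of 50 or none, which admits 1446827_at of Ncoa2 as well. The median difference of 0.33 became -0.33 after median centring, -0.34 after quantile normalization, 0.10 with the floor at 100, 0.54 with a signal minimum of 50, and 1.86 with 1 probe set per gene, which leaves 4 genes and takes Greb1 at its bound. Of the 7 member probe sets that passed a signal of 100, 5 had negative differences after median centring and the same number after quantile normalization. Centring takes 0.66 off each difference, which is more than the median of 0.49 over all 5370 probe sets. Most probe sets of any kind thus turn negative after centring. The sign of the Nrip1 and Ncoa2 differences follows the setting and has no settled direction. Leaving out probe sets with the endings _x_at, _s_at or _a_at could not change the counts or the median, since none of the 7 has such an ending. No paired analysis was possible because there is 1 array per population and no test. The floor limits Cited1 and Greb1 to bounds.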

Other observations

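Of 12 estrogen receptor family members and pathway factors, 9 were represented, 7 passed a signal of 100 and 5 were higher by 4-fold or more in luminal VenusHigh cells, where 8.58% of all 3847 genes that passed that signal were. Tbx3, whose promoter drives the Venus signal of the sort, is 1 of the 5, so its place in the count was set by the sort. Foxa1 was among them with log2 signals of 11.81 in VenusHigh and 7.76 in VenusLow cells. Its difference of 4.05 was the same with the floor at 100. Pgr (6.88) and Esr1 (2.98) were also among the 5, of which only Foxa1 and Esr1 passed a signal of 100 in both populations. Esrrb, which encodes an orphan receptor related to the estrogen receptor, was another, with log2 signals of 6.88 in VenusHigh and 3.87 in VenusLow cells. Another Esrrb probe set differed by at least 4.10 and the other was at the floor on both arrays, and with the floor at 100 the first difference was 0.23. Esrra, the gene of a related orphan receptor, differed by 0.18 and Gata3, a luminal transcription factor, by 0.84, or 0.18 after median centring. Esr2, the gene of estrogen receptor beta, was at the floor on both arrays.

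Of 10 genes for chaperones that hold steroid receptors ready to bind hormone, 6 were represented and 4 passed a signal of 100. Of the 4, 0 were higher by 2-fold or more in VenusHigh cells, where 21.6% of the 3847 genes were. Their median was 0.32, against 0.46 over the 3847 genes. Stip1 differed by 0.76, Hspa8 by 0.40, Fkbp4 by 0.24 and Bag1 by 0.24. After median centring only Stip1 of these 4 was above 0, where most of the 3847 genes also fell under 0. The 2 probe sets of Hsp90aa1 and the 1 of Fkbp5 in the table were at the floor on both arrays. Probe sets lower in VenusHigh cells would be missing here, so these values do not show that the genes were silent.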
